A study of Mus musculus with 13 samples.

Results

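The 9 genes described here encode enzymes that build serine and asparagine and that carry one-carbon units on folate. They are Phgdh, Psat1 and Psph (serine synthesis), Asns (asparagine synthesis), Shmt1 (cytosolic folate) and Shmt2, Mthfd2, Mthfd1l and Aldh1l2 (mitochondrial folate). They were taken by gene symbol from the table of normalized counts, where they are 9 of 21868 genes, and all 9 reached the mean of 10 normalized counts that was set for testing, as did 12303 genes in all.

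RNA of whole gastrocnemius, a mixed but mostly fast calf muscle, was sequenced from 13 male mice of the inbred strain C57BL/6, given in the study as C57BL/6N. All 13 were 7 weeks old at the start, were made obese on a diet with 60 kcal% fat for 15 to 17 weeks and were then moved to standard chow, so that no group was lean or remained on the fat diet. Over the next 3 weeks, 5 mice received vehicle (phosphate-buffered saline, labelled Vehicle+placebo), 5 received intraperitoneal semaglutide, an agonist of the GLP-1 receptor, at 30 nM/kg per day (Semaglutide+placebo), and 3 received the same dose and drank water that held a ketone ester at 0.114 g/mL (Semaglutide+ketone ester). There was no group given the ketone ester without semaglutide, and only males were used. Mice are named by the animal numbers of the labels, which are 1 to 5 for vehicle, 13 to 17 for semaglutide and 19, 21 and 22 for semaglutide + ketone ester.

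Serine is made from the glycolytic intermediate 3-phosphoglycerate in consecutive steps that PHGDH, PSAT1 and PSPH catalyse. SHMT enzymes then split serine into glycine and a one-carbon unit on tetrahydrofolate, which the mitochondrial enzymes oxidize to formate or carbon dioxide and which the cytosol uses for purines, thymidylate and methionine. In many cell types ATF4, the transcription factor of the integrated stress response, raises transcription of Phgdh, Psat1, Asns, Shmt2, Mthfd2 and Aldh1l2, and in muscle with faulty mitochondria several of these genes are known to rise together.

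Reads counted on genes numbered 15319471 to 23498162 per mouse, with a median of 16501686. The labelled tissue was checked on 9 markers of muscle fibres, all detected, whose summed normalized count was 2414000 to 2874000 in vehicle, 1493000 to 2581000 in semaglutide-treated mice, with 2997000 to 3488000 in mice given both. Other cell types were also present, and no marker was at 0 in every mouse. A pair of semaglutide-treated mice stood apart. In mouse 13 the fibre sum was 2581000, inside the vehicle range, against 1493000 to 2092000 in mice 14 to 17. That sum is set mostly by abundant genes such as Myh4 and Acta1. For Mb, another of the 9, every semaglutide-treated mouse, mouse 13 included, lay below the vehicle range (6806 to 13880 against 28030 to 50640). In mouse 16 the sum of 6 adipocyte markers was 11060, against 149.9 to 2674 in the other 12 mice. Values without mice 13 and 16 are given beside the results that they move most.

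In vehicle-treated muscle the 9 genes covered a wide range of levels, compared here as normalized counts per kilobase of annotated exon. Shmt2 was at the top with 159.7 ± 17.3 (SD, n = 5), followed by Shmt1 with 40.5 ± 5.21 and Psph with 34.6 ± 1.5. Mthfd2 (21.4 ± 4.56), Aldh1l2 (11.7 ± 2.00) and Asns (9.51 ± 3.35) lay lower, and Psat1 (6.78 ± 2.69), Phgdh (6.32 ± 5.41) and Mthfd1l (4.32 ± 1.69) lowest, each with n = 5. Mice overlapped between the neighbours Shmt1 and Psph, between Aldh1l2 and Asns, and between each following pair down to Mthfd1l, so their order is not larger than the spread between mice. Shmt2 lay above Shmt1, Psph above Mthfd2 and Mthfd2 above Aldh1l2 without overlap. The first serine enzymes and Mthfd1l were thus the weakest, down to 3 reads for Phgdh in a vehicle-treated mouse, and counting error alone limits what can be said of them.

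Semaglutide against vehicle asks how the drug changed muscle in obese mice, and semaglutide + ketone ester against semaglutide asks what the ester added to it. The 2 comparisons share the same semaglutide-treated mice. A high or low value in that group therefore moves them in opposite directions, and opposite signs in the 2 are not separate evidence. Of the 9 genes, 1 was lower in semaglutide than in vehicle-treated mice (Aldh1l2) and 0 were higher, where 13.2% of all genes tested were lower and 11.9% higher (limma on log2(normalized count + 1), Benjamini-Hochberg adjusted p under 0.05 over the 12303 genes). In semaglutide + ketone ester against semaglutide, 2 of the 9 were higher (Aldh1l2 and Psph), beside 9.09% of all genes, and 0 were lower, beside 9.3%. In semaglutide + ketone ester against vehicle 0 of the 9 passed in either direction, where 0.0732% of all genes were higher and 0.163% lower. At an unadjusted p under 0.05, 4 of the 9 (Psat1, Psph, Shmt1 and Aldh1l2) differed in the first comparison, 2 in the second and 0 in the third, where 38.6%, 34.3% and 10.5% of all genes tested did so. The F-test over the 3 groups called 2 of the 9, Psph (adjusted p = 0.0438) and Aldh1l2 (adjusted p = 0.0134), where 23.8% of all genes were called. In the same 3 comparisons the median difference of the 9 genes was 0.34, -0.06 and 0.19, beside medians of -0.003, 0 and -0.006 over all genes tested.

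**Figure D1:**
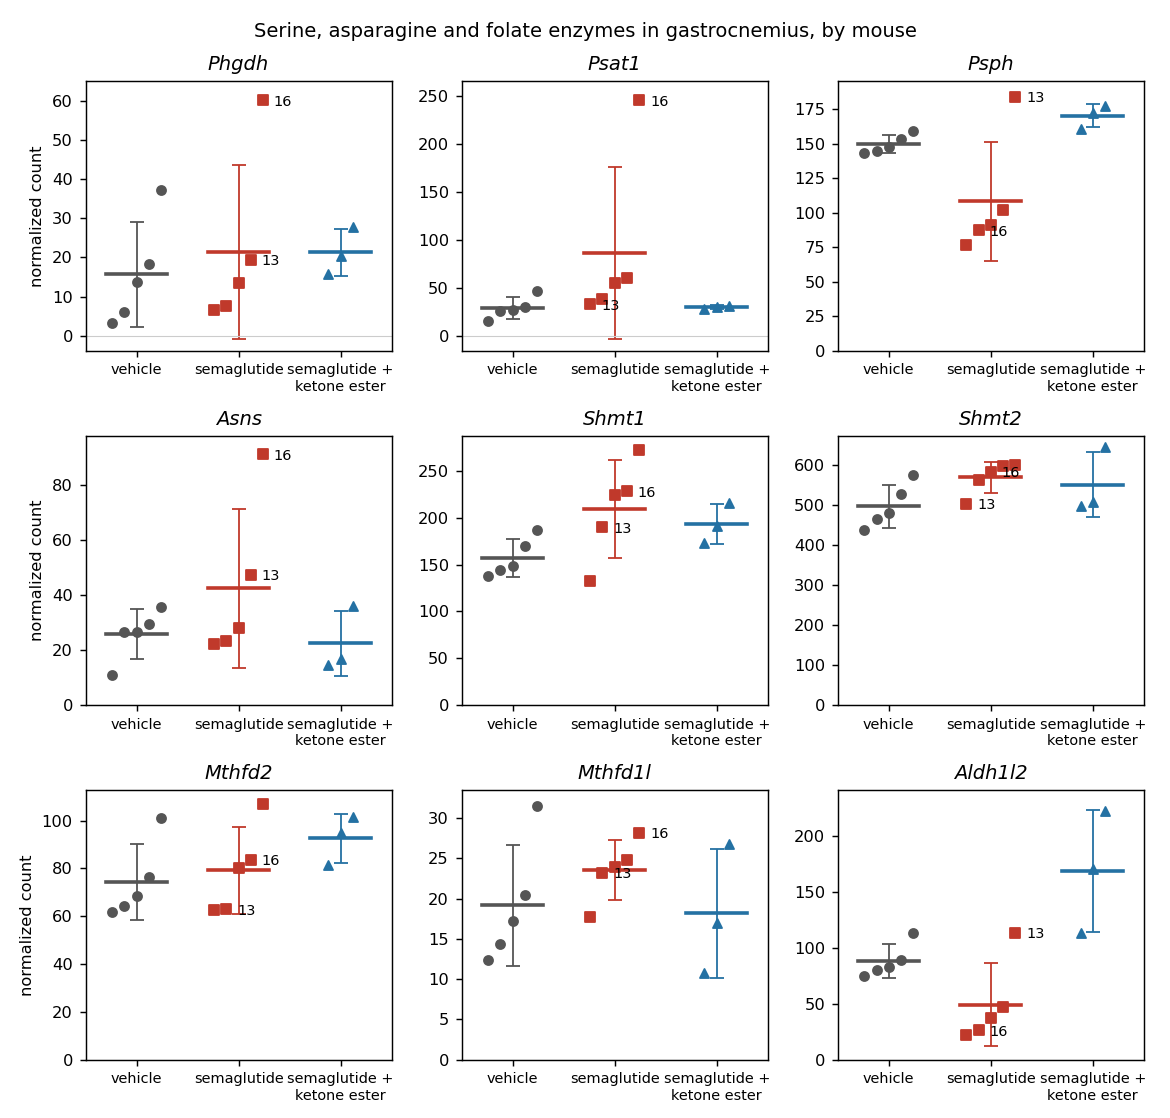
Normalized count of each of the 9 enzymes in every mouse (vertical axes, each from its own scale), with 5 vehicle, 5 semaglutide and 3 semaglutide + ketone ester-treated mice as points, the group mean as a horizontal line and the SD as an error bar; the numbers mark semaglutide mice 13 and 16. Psph and Aldh1l2 are low in semaglutide mice 14 to 17 but not in mouse 13, and Psat1, Phgdh and Asns are highest in semaglutide mouse 16.

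Both genes that passed a test were at their lowest under semaglutide. Aldh1l2 (chr10:83487450-83534140, minus strand, GRCm38) encodes the mitochondrial 10-formyltetrahydrofolate dehydrogenase, which oxidizes the one-carbon unit to carbon dioxide and makes NADPH. Its normalized counts were 74.4, 113.2, 89.1, 83.2 and 80.3 in vehicle mice 1 to 5. In semaglutide mice 13 to 17 they were 113.2, 37.2, 46.7, 26.2 and 22.4. In semaglutide + ketone ester mice 19, 21 and 22 they were 113.0, 222.3 and 170.6. Mice 14 to 17 thus lay below every other mouse, mouse 13 lay at the top of the vehicle range, and mice 21 and 22 lay above all the others, while mouse 19 lay with the highest vehicle mouse. The group means were 88.0 ± 15.0 (SD, n = 5) for vehicle, 49.1 ± 37.0 (n = 5) for semaglutide and 168.6 ± 54.7 (n = 3) for semaglutide + ketone ester.

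Aldh1l2 fell by 1.07 on the log2 scale (SE 0.36, 2.09-fold) under semaglutide, with a limma adjusted p of 0.0475, and 4 of 5 mice lay below all vehicle-treated mice. Adding the ketone ester gave a level 1.96 higher on the log2 scale (SE 0.42, 3.88-fold) than semaglutide alone, for which the limma adjusted p was 0.00876, and 2 of 3 mice lay above all semaglutide-treated mice. Against vehicle the semaglutide + ketone ester difference was 0.89 (95% interval -0.01 to 1.80, limma adjusted p = 0.485), which did not pass the threshold. The fall under semaglutide was close to the threshold: leaving out 1 mouse at a time, it passed in 1 of 13 fits, the one without mouse 13 (difference -1.43, limma adjusted p = 0.000921), and its adjusted p reached 0.117 in the others. With all mice it also did not pass in edgeR (-0.84, adjusted p = 0.104), in DESeq2 (-0.84, adjusted p = 0.0628), after quantile normalization (adjusted p = 0.0617), without a filter (adjusted p = 0.0749) or with only the 2 groups fitted (adjusted p = 0.0656). The higher level with the ketone ester passed in 13 of 13 such fits, with adjusted p up to 0.0489, and in edgeR (adjusted p = 0.00713) and DESeq2 (adjusted p = 0.000216), but not when only those 2 groups were fitted (adjusted p = 0.0535). In these bulk samples, fewer cells of a type and less RNA per cell cannot be told apart.

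Psph (chr5:129765558-129787449, minus strand), the phosphatase of the last step of serine synthesis, followed the same order of groups with smaller differences. Its normalized counts were 153.3, 158.9, 144.8, 143.0 and 147.9 in the vehicle-treated mice, which differed little among themselves. Semaglutide mice 13 to 17 had 183.8, 91.3, 102.2, 87.4 and 76.8. Semaglutide + ketone ester mice 19, 21 and 22 had 172.5, 177.6 and 161.0. Mice 14 to 17 lay below all others here too, mouse 13 was the highest of all 13, and the 3 mice given the ester lay above all 5 vehicle-treated mice. Group means were 149.6 ± 6.52 (SD, n = 5), 108.3 ± 43.2 (n = 5) and 170.4 ± 8.47 (n = 3). Between semaglutide and vehicle the log2 difference was -0.53 (95% interval -0.94 to -0.13, limma adjusted p = 0.0527), just short of the threshold. Leaving out 1 mouse at a time, it passed in 1 of 13 fits. That was the fit without mouse 13, the highest of all 13 mice (-0.74, limma adjusted p = 0.000112), and adjusted p reached 0.129 in the others. Psph was 0.72 higher on the log2 scale (SE 0.21, 1.65-fold) when the ketone ester was added to semaglutide, and the limma adjusted p was 0.0359. That call held in 6 of 13 fits that left out 1 mouse, with adjusted p between 0.000111 and 0.113, and it was lost without a filter (adjusted p = 0.0603) and with only the 2 groups fitted (adjusted p = 0.121). It held in edgeR (adjusted p = 0.0429) and DESeq2 (adjusted p = 0.0251). Semaglutide + ketone ester and vehicle differed by 0.19 (95% interval -0.28 to 0.65, limma adjusted p = 0.855), although their mice did not overlap. That interval uses 1 spread pooled over the 3 groups, and the SD was 43.2 under semaglutide, against 6.52 and 8.47 in the 2 groups compared. The share of all genes without overlap here was not counted.

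Levels of some markers moved with these differences, and those of others did not. Of the 9 fibre markers, 3 were lower under semaglutide than vehicle (Acta1, Mb and Myh4), beside 13.2% of all genes tested. With the ketone ester 4 were higher than under semaglutide alone, beside 9.09%. The same shares apply to the marker counts below. Neither Psph nor Aldh1l2 was low in semaglutide mouse 13. It also had the highest sum of 6 blood cell markers of its group, 3187 against 73.3 to 1537 in mice 14 to 17. Vehicle-treated mice had 1390 to 2346 and semaglutide + ketone ester-treated mice 2870 to 5583. Of these 6 markers 4 were higher with the ester than under semaglutide, and 0 passed between semaglutide and vehicle. Sums of 6 fibroblast and tendon markers were 5017 to 11470 in vehicle, 4619 to 6237 in semaglutide-treated mice and 6418 to 10660 in mice given both. Under semaglutide 4 of these markers were lower than in vehicle. With the ester 3 were higher than under semaglutide alone and Scx was lower (-1.07, limma adjusted p = 0.0346). No macrophage or nerve and Schwann cell marker passed in either comparison. Of 5 endothelial markers 0 passed under semaglutide and 2 were higher with the ester. The part of any of these cell types in the Psph and Aldh1l2 results was not tested. Both genes share exonic bases with a gene on the other strand, Psph with Cct6a over 10.4% of its exon length and Aldh1l2 with D10Wsu102e over 14.1%, and whether reads were counted by strand is not stated. Under semaglutide the log2 difference from vehicle was 0.21 for Cct6a (limma adjusted p = 0.093) and 0.04 for D10Wsu102e (adjusted p = 0.739). With the ester the difference from semaglutide was -0.36 for Cct6a (limma adjusted p = 0.0241) and 0.11 for D10Wsu102e (adjusted p = 0.436), and the part of opposite-strand reads in the Psph and Aldh1l2 values was not tested.

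**Figure D2:**
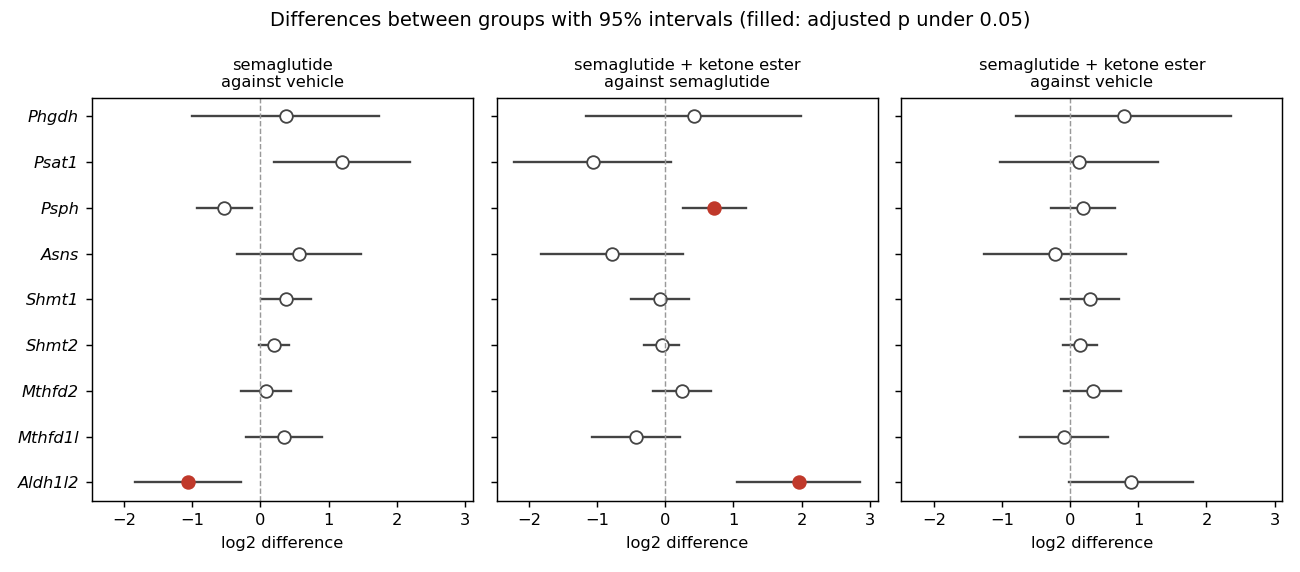
Log2 differences between groups for the 9 enzymes (horizontal axis, with 95% intervals from limma) in the 3 comparisons, with filled points for an adjusted p under 0.05 over all genes tested. Aldh1l2 is filled in the first and second panels and Psph in the second panel, and in the third panel no point is filled.

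Genes other than the 9 enzymes were searched for the patterns over the 13 mice most like these. The measure was the smallest mean absolute difference in log2 level relative to vehicle. For Psph they were Ptp4a2 (0.10), Ssbp2 (0.11) and Rab3a (0.11), and for Aldh1l2 they were Ky (0.23), Itm2a (0.23) and Plcd4 (0.24). Psph and Aldh1l2 themselves differed by 0.44 on this measure, and 7610 of the other genes lay nearer to Psph than Aldh1l2 did. Among the 9 genes the closest pair was Mthfd2 and Shmt2, with 0.23, and 304 genes lay nearer to Mthfd2 than Shmt2 did. Genes that stay near the vehicle level are close on this measure whatever their pattern. Mthfd2 and Shmt2 differed from vehicle by only 0.08 and 0.20 under semaglutide, so their closeness does not show a shared pattern.

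The earlier serine enzymes and Asns did not pass in any comparison, and in semaglutide-treated mice their means were set largely by mouse 16. Psat1 (chr19:15904678-15947337, minus strand), the aminotransferase of the middle step, had normalized counts of 14.9, 30.1, 26.0, 26.6 and 46.6 in vehicle mice 1 to 5. Semaglutide mice 13 to 17 had 32.9, 55.2, 37.8, 245.7 and 60.4. Semaglutide + ketone ester mice 19, 21 and 22 had 27.9, 30.2 and 31.3. Mouse 16 was 4.07 times the highest of the other 12 mice, mice 14 and 17 also lay above every vehicle-treated mouse, and the mice given the ester lay below all 5 given semaglutide alone and inside the vehicle range. The means were 28.8 ± 11.5 (SD, n = 5), 86.4 ± 89.8 (n = 5) and 29.8 ± 1.69 (n = 3).

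For semaglutide against vehicle the Psat1 difference was 1.20 on the log2 scale (95% interval 0.20 to 2.20, limma adjusted p = 0.0756). Without mouse 16 it was 0.72 with a limma adjusted p of 0.0814. It passed in 1 of 13 fits that left out 1 mouse, the one without mouse 13 (1.43, limma adjusted p = 0.0327), and adjusted p reached 0.159 in the others. Without both mice 13 and 16, a choice made after seeing the data, it was 0.86 with a limma adjusted p of 0.0402. On whole reads recovered from the normalized counts, edgeR gave 1.60 (adjusted p = 0.0346) and DESeq2 1.60 (adjusted p = 0.00663), while limma with weights for each mouse gave 1.04 (adjusted p = 0.0335). Semaglutide + ketone ester against semaglutide gave -1.07 (95% interval -2.23 to 0.09, limma adjusted p = 0.177) and -0.59 without mouse 16 (adjusted p = 0.212). With all mice edgeR gave -1.54 (adjusted p = 0.0929), and DESeq2 gave -1.55 with an adjusted p of 0.0326. Against vehicle the combined treatment differed by 0.13 (95% interval -1.03 to 1.29, limma adjusted p = 0.972).

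Phgdh (chr3:98313170-98339990, minus strand), the dehydrogenase of the first and committed step, was counted with only 3 to 62 reads per mouse. Its normalized counts were 18.3, 6.02, 13.6, 3.33 and 37.3 in vehicle, 19.3, 13.5, 6.67, 60.2 and 7.46 in semaglutide and 15.8, 27.8 and 20.4 in semaglutide + ketone ester-treated mice, in the order of the animal numbers. The groups overlapped throughout, and mouse 16 was again the highest of all 13, at 1.62 times the next. Differences from vehicle were 0.37 for semaglutide (95% interval -1.0 to 1.74, limma adjusted p = 0.701) and 0.78 for semaglutide + ketone ester (-0.80 to 2.36, adjusted p = 0.803). The sign of the first changed to -0.11 without mouse 16, to -0.05 when mice were weighted and to -0.37 without mice 13 and 16, so that no direction could be given for Phgdh at this depth. Between semaglutide + ketone ester and semaglutide the difference was 0.41 (-1.17 to 2.00, adjusted p = 0.727) in limma and -0.01 in both count tests. A processed copy of the gene, Phgdh-ps1, is annotated elsewhere in the genome, and how reads shared with it were counted is not given.

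Asns (chr6:7675169-7693254, minus strand) makes asparagine from aspartate with glutamine as the nitrogen donor, and it is a textbook target of ATF4. Within 300 bases around the RefSeq starts (250 before and 50 after), the core TGATGNAA of the C/EBP-ATF response element was searched on both strands in all genes of the RefSeq promoter table for GRCm38.p6. It was found in 1 of the 8 enzyme genes with a window, Asns, and in 3.97% of 32851 windows (4.51% of 27025 genes). The stretch is shown because it is the only such match among these genes. It lies at chr6:7693214-7693242 on the minus strand, in the strand of the gene, with the 8 matching bases in capitals, 23 bases before the RefSeq start and 22 bases inside the first exon of the longer GENCODE model:
Asns: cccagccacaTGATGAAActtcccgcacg
A match of these letters is a description and does not show binding in muscle.

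The normalized counts of Asns were 29.8, 26.5, 35.9, 11.1 and 26.8 in vehicle mice 1 to 5. In semaglutide mice 13 to 17 they were 47.4, 28.2, 23.3, 91.3 and 22.4, and in semaglutide + ketone ester mice 19, 21 and 22 they were 14.6, 36.2 and 16.8. Mice 13 and 16 lay above the vehicle range and the other 3 semaglutide-treated mice inside it, so the groups overlapped. Group means were 26.0 ± 9.15 (SD, n = 5), 42.5 ± 29.1 (n = 5) and 22.6 ± 11.9 (n = 3). The differences were 0.56 for semaglutide against vehicle (95% interval -0.34 to 1.47, limma adjusted p = 0.347), -0.78 for semaglutide + ketone ester against semaglutide (-1.83 to 0.26, adjusted p = 0.27) and, for the combined treatment against vehicle, -0.22 (-1.26 to 0.83, adjusted p = 0.933). Without mouse 16 the first difference was 0.24 (limma adjusted p = 0.661) and the second -0.46 (adjusted p = 0.458). Intervals of the width given for all mice include both no change and changes of more than 1.5-fold.

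Adipocyte markers stood beside these values in the same mice. Their sums over Adipoq, Plin1, Cidec, Lep, Cfd and Retn were 575.5 to 2674 in vehicle, 149.9 to 11060 in semaglutide-treated mice and 1026 to 2045 in those given both. Lep, which encodes leptin and is a defining marker of fat cells, was at 0 in semaglutide mouse 14 and detected in the other 12. In each group the mouse with the highest adipocyte sum (5, 16 and 21) also had the highest Phgdh count, Psat1 was highest in mice 5 and 16 of the first 2 groups, and Asns in mice 16 and 21 of the last 2. Macrophage marker sums, over 5 genes, were highest in the same mice of each group, with 1439 in mouse 5, 1876 in mouse 16 and 1306 in mouse 21, against 455.4 to 1100 in the others. Among all genes tested, the excess of mouse 16 over the highest other mouse placed Psat1 at rank 33, Asns at rank 165 and Phgdh at rank 254 of 12303. The leading ranks included the adipocyte genes Cfd, Cidec and Retn as well as Pck1, which were picked out after their values were seen. Mouse 16 did not lead for Lep, whose highest value was 210.7 in semaglutide-treated and 450.6 in vehicle-treated mice. In mice 14 and 17, which also lay above the vehicle range for Psat1, the adipocyte sums were 149.9 and 1105, within or below the range of vehicle-treated mice. The part of adipocytes or macrophages in the values of mouse 16 was not tested.

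**Figure D3:**
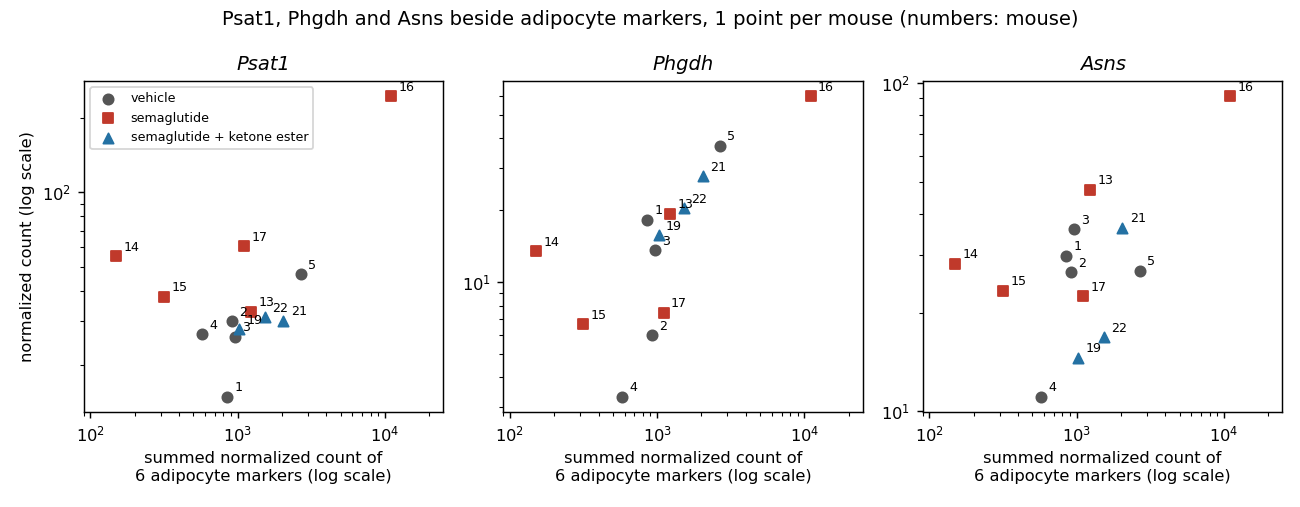
Normalized counts of Psat1, Phgdh and Asns (vertical axes, log scale) against the summed normalized count of 6 adipocyte markers (horizontal axes, log scale), 1 numbered point per mouse, by group. Semaglutide mouse 16 lies at the upper right in each panel, and Psat1 in mice 14 and 17 lies above the vehicle-treated mice at low or middle adipocyte sums.

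None of the serine-splitting enzymes and remaining mitochondrial folate enzymes passed in a comparison. Shmt1 (chr11:60788104-60811718, minus strand), the cytosolic serine hydroxymethyltransferase, had normalized counts from 137.3 to 186.3 in vehicle (median 148.5), from 131.9 to 272.1 in semaglutide (median 224.5) and of 172.5, 190.9 and 215.1 in semaglutide + ketone ester-treated mice. Semaglutide mice 13, 15, 16 and 17 lay above all vehicle-treated mice and mouse 14, with 131.9, below them. The difference of 0.38 between semaglutide and vehicle (95% interval 0.01 to 0.75) had a limma adjusted p of 0.121. Leaving out 1 mouse at a time, it passed in 1 of 13 fits, the one without mouse 14 (0.53, limma adjusted p = 0.0152). Adjusted p reached 0.263 in the others. With the ester, Shmt1 differed by 0.30 from vehicle (-0.13 to 0.72, limma adjusted p = 0.689) and by -0.08 from semaglutide (-0.51 to 0.34, adjusted p = 0.801).

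Shmt2 (chr10:127517123-127522444, minus strand), its mitochondrial counterpart, ranged from 438.2 to 573.2 in vehicle, from 501.9 to 598.4 in semaglutide and from 497.7 to 642.9 in semaglutide + ketone ester-treated mice. Means were 496.5 ± 53.7 (SD, n = 5), 568.0 ± 39.8 (n = 5) and 549.4 ± 81.1 (n = 3), and the groups overlapped. Semaglutide differed from vehicle by 0.20 (95% interval -0.02 to 0.42, limma adjusted p = 0.172) and the combined treatment differed from semaglutide by -0.06 (-0.31 to 0.20, adjusted p = 0.777). Shmt2, the most abundant of the 9 per kilobase, had the narrowest intervals, which leave out a change of 1.5-fold in either direction.

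Mthfd2 (chr6:83305691-83325908, minus strand) oxidizes the one-carbon unit in mitochondria of growing cells and is usually low in adult tissue. It ranged from 61.7 to 101.1 in vehicle, from 62.7 to 107.1 in semaglutide and from 81.4 to 101.5 in semaglutide + ketone ester-treated mice. The groups overlapped, and differences from vehicle were 0.08 (95% interval -0.28 to 0.45, limma adjusted p = 0.75) under semaglutide and 0.33 (-0.09 to 0.75, adjusted p = 0.627) with both agents, and the latter differed from semaglutide by 0.25 (-0.18 to 0.67, adjusted p = 0.399). Mthfd1l (chr10:3973118-4167081, plus strand), which releases formate for export to the cytosol, was counted with 9 to 32 reads per mouse and ranged from 12.4 to 31.4, from 17.8 to 28.2 and from 10.8 to 26.7 normalized counts. Its differences from vehicle were 0.34 (-0.22 to 0.90, limma adjusted p = 0.358) under semaglutide and -0.09 (-0.73 to 0.55, adjusted p = 0.963) with both agents, which differed from semaglutide by -0.43 (-1.08 to 0.21, adjusted p = 0.329).

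The scaling between mice shifted the values of all genes together. With each mouse scaled to the same total, the median of all genes moved to 0.17 for semaglutide against vehicle and to -0.235 between the combined treatment and semaglutide, and the numbers of genes higher and lower changed from 1459 and 1625 to 3262 and 929 in the first and from 1118 and 1144 to 611 and 3587 in the second. Relative to that median the differences of the 9 genes were nearly the same, with Aldh1l2 at -1.07 and 1.96 and Psph at -0.53 and 0.72. This follows from the method, which multiplies all genes of a mouse by the same factor, and is not a separate check. Tested without regard to that shift, Shmt1 (0.55, limma adjusted p = 0.0312) and Shmt2 (0.37, adjusted p = 0.0268) passed as higher under semaglutide, and Aldh1l2 (-0.90, adjusted p = 0.0606) no longer passed as lower. Psph no longer passed between the combined treatment and semaglutide (0.49, limma adjusted p = 0.0828).

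Genes of the integrated stress response were followed because the response acts on several of these enzymes. The median difference of the 14 tested was 0.12 between semaglutide and vehicle. Of them, 2 were higher under semaglutide than vehicle (Atf4 and Ppp1r15a), beside 11.9% of all genes tested, and 0 were lower. The same 2 were lower with the ketone ester than under semaglutide alone, beside 9.3%, while none differed between the combined treatment and vehicle. Atf4 had normalized counts of 2437 to 2950 in vehicle, 2917, 5013, 4214, 4191 and 3944 in semaglutide mice 13 to 17, with 2334 to 2714 in mice given both. Mice 14 to 17 lay above all others and mouse 13 inside the vehicle range. The differences were 0.57 (SE 0.13, limma adjusted p = 0.00851) under semaglutide, and -0.69 (SE 0.15, adjusted p = 0.00876) between the combined treatment and semaglutide. Ppp1r15a, which encodes the phosphatase subunit GADD34 that ends the response, rose by 0.90 (SE 0.29, limma adjusted p = 0.042) and was 1.80 lower on the log2 scale with the ester (SE 0.34, adjusted p = 0.00526). Ddit3, which encodes CHOP, differed by -0.10 from vehicle under semaglutide (95% interval -0.64 to 0.45, limma adjusted p = 0.804). Of the enzymes given above as known ATF4 targets, Psat1 and Shmt2 each lay above every vehicle-treated mouse in 3 of the 4 mice with high Atf4, and Asns, Phgdh and Mthfd2 each in 1 of them. Mouse 16, with the high adipocyte sum, was among the 3 for Psat1 and Shmt2 and was the 1 for Asns and Phgdh. Aldh1l2 lay below every vehicle-treated mouse in all 4 mice with high Atf4. These 4 mice were picked by their Atf4 values. Asns also lay above every vehicle-treated mouse in mouse 13 (47.4 against at most 35.9), whose Atf4 was inside the vehicle range. How many of all genes lay above or below every vehicle-treated mouse in these mice was not counted, so the counts have no share to be set against. The part of ATF4 in these values was not tested.

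**Figure D4:**
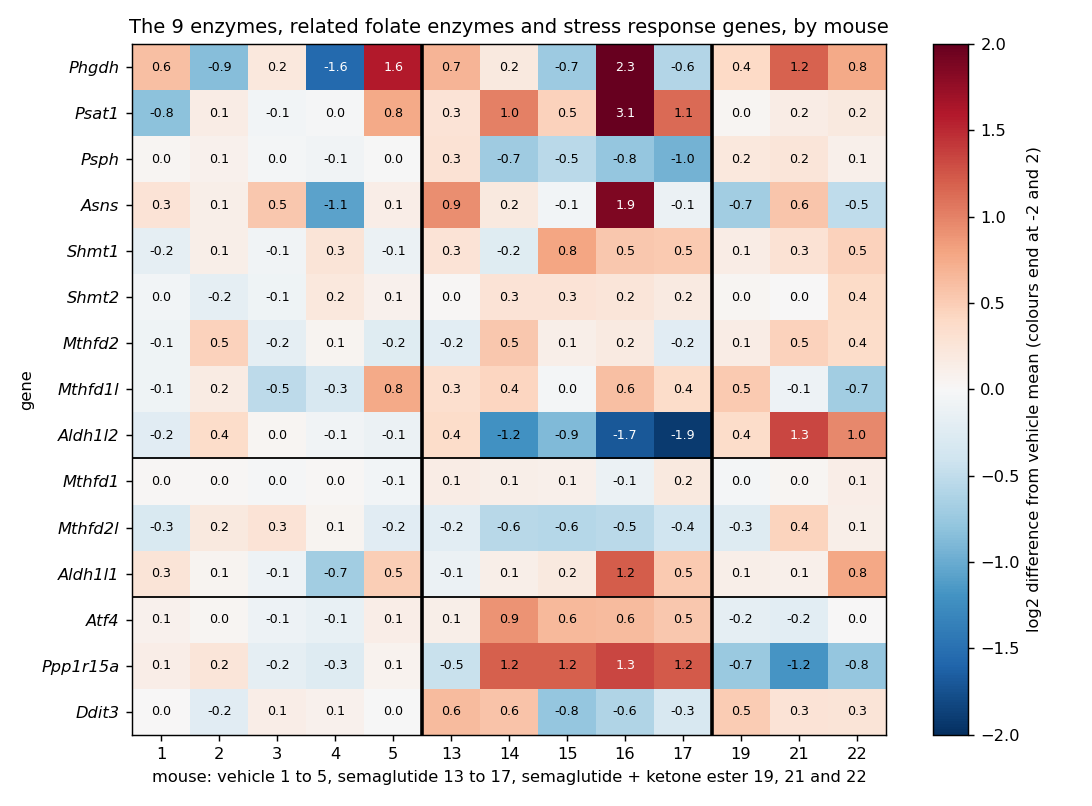
Log2 difference of each mouse (columns, 13 mice in 3 groups separated by vertical lines) from the vehicle mean, for the 9 enzymes, 3 related folate enzymes and 3 stress response genes (vertical axis), with red above and blue below vehicle and the value printed in each cell. Aldh1l2 and Psph are blue and Atf4 and Ppp1r15a red in semaglutide mice 14 to 17, while in mouse 13 Psph and Aldh1l2 are above, Ppp1r15a below and Atf4 close to the vehicle mean.

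Other enzymes around serine, asparagine and folate changed in small numbers. Of all genes tested, 11.9% were higher and 13.2% lower under semaglutide than vehicle. With the ester 9.09% were higher and 9.3% lower than under semaglutide alone. In the serine and glycine list 6 genes were tested, of which 2 were lower under semaglutide and higher with the ester than under semaglutide, and 0 differed between the combined treatment and vehicle. These were Srr, serine racemase (-0.58, limma adjusted p = 0.0155, and 0.58, adjusted p = 0.0372), and Dld, the dehydrogenase shared by the glycine cleavage system and other mitochondrial complexes (-0.41, adjusted p = 0.00504, and 0.41, adjusted p = 0.0128). Among 6 partners of asparagine, Asrgl1, an asparaginase, was the one that passed, higher under semaglutide (0.46, limma adjusted p = 0.00742) and lower with the ester (-0.57, adjusted p = 0.00786).

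Among related folate enzymes, Mthfd2l, a mitochondrial relative of Mthfd2, was lower under semaglutide than vehicle (-0.46, limma adjusted p = 0.0424) and 0.56 higher with the ester than under semaglutide alone (adjusted p = 0.0424). Mthfd1, the cytosolic enzyme of the same reactions, differed by 0.09 (95% interval -0.08 to 0.25, limma adjusted p = 0.431), and Aldh1l1, the cytosolic relative of Aldh1l2, by 0.38 (-0.20 to 0.97, adjusted p = 0.324) between semaglutide and vehicle. Of 13 carriers tested, 2 were higher under semaglutide and 0 were lower, beside 11.9% and 13.2% of all genes tested. The 2 were Slc19a1, the reduced folate carrier (0.61, limma adjusted p = 0.00359), and Sfxn2, of the sideroflexin family to which the mitochondrial serine carrier belongs (0.60, adjusted p = 0.00728). In both comparisons with the combined treatment 1 carrier was lower, Slc38a2 (named after its values were seen), and 0 were higher. Of all genes tested, 9.3% were lower in the comparison with semaglutide and 0.163% in that with vehicle. Medians of the serine and glycine, asparagine, carrier and stress response lists for semaglutide against vehicle lay between -0.28 and 0.12, beside a median of 0.00 over all genes tested.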

How the data were processed

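RNA from gastrocnemius of 13 mice was prepared with a stranded mRNA kit and sequenced as paired ends by the authors. The submitters' processing notes name DRAGEN, DESeq2 and the build mm10. The counting program, annotation and use of strand are not given in the sources used here. The authors deposited normalized counts per gene, a signal scaled between libraries, with 1 column per mouse. Every value was a whole multiple of a step of its library, so that whole reads were recovered for 100% of values (within 0.01 read). At most 2.08% of tested genes had equal reads in any of 78 pairs of mice, so no library was counted as a duplicate. At these depths, 3 reads were 1.28e-05% to 1.96e-05% of a library, counting error alone considered.

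Genes with a mean of at least 10 over the 13 mice were taken to the log2(normalized count + 1) scale, and limma (lmFit and eBayes, version 3.58.1, R 4.3.3) was fitted with 3 groups and no covariate, with Benjamini-Hochberg adjustment over the 12303 genes and a threshold of 0.05. Fold changes on this scale understate the change of low genes. The labels give 1 batch date for all samples. Mice are separate animals, and no number pairs them between groups. The steps were tested on simulated data first.

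Alternatives were other pseudocounts (0.5 and 10) and filters (none, 50), equal totals, quantile normalization, weights per mouse, a mean-variance trend, only the 2 groups compared, each mouse left out, and edgeR (4.0.16) and DESeq2 (1.42.0) on recovered reads. Semaglutide mice 13 and 16 were also left out together. In edgeR 1769 genes were higher and 1542 lower under semaglutide than vehicle, 1202 and 1355 for semaglutide + ketone ester against semaglutide, and 17 and 28 against vehicle.

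The enzymes, pathway lists and marker lists were chosen with earlier results of these data known. Named were all 9 enzymes, the 3 genes outside the 9 that were nearest to each that passed a test, up to 4 genes of a pathway list with the largest changes past the threshold for semaglutide against vehicle, and Mthfd1, Mthfd2l, Aldh1l1, Atf4 and Ddit3. Pathway lists were serine and glycine, asparagine partners, carriers, methionine cycle, purine synthesis and stress response. Of related folate enzymes, Mthfd1, Mthfd2l and Aldh1l1 are given singly, and the rest are not reported here. Exon lengths and positions came from GENCODE (GRCm38) and promoter windows from RefSeq (GRCm38.p6).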

Additional observations from a re-analysis of the deposited data

Results flagged for a closer look

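Within the groups of 5 mice, 4 of 18 sets of values had a mouse whose gap to its nearest neighbour was more than 0.71 of the whole range, the 95% limit of Dixon's test for 5 values. Chance alone marks about 1 in 20 such sets. In semaglutide mouse 16, Psat1 had a normalized count of 245.7 (gap 0.871 of the range) and Phgdh of 60.2 (0.763), each above the other 4 semaglutide-treated mice. In semaglutide mouse 13, Psph had a normalized count of 183.8 (0.763) and Aldh1l2 of 113.2 (0.733), while the other 4 mice of that group lay between 76.8 and 102.2 for Psph and between 22.4 and 46.7 for Aldh1l2.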

How the results depend on the processing

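The number of the 9 enzymes that differed between semaglutide and vehicle, 1 as reported, depended on the processing. It was 2 with a pseudocount of 10, a filter at 50, equal totals or a mean-variance trend, 4 with weights per mouse, 0 without a filter or with only the 2 groups, 3 without mice 13 and 16 (chosen after seeing the data), and 0 to 3 without 1 mouse. The number higher, 0, became 2 with equal totals or weights, 1 with quantile normalization, edgeR, DESeq2 or without mice 13 and 16, and 0 to 1 without 1 mouse. The number lower, 1, became 2 with a pseudocount of 10, a filter at 50, weights, a trend or without mice 13 and 16, 0 without a filter or with equal totals, quantile normalization, only the 2 groups, edgeR or DESeq2, and 0 to 2 without 1 mouse. Under semaglutide + ketone ester against semaglutide, 2 differed, all higher. This was 1 without a filter or with equal totals, 0 with only the 2 groups and 1 to 2 without 1 mouse, and 1 was lower in DESeq2 (Psat1). The F-test called 2, and 1 without a filter, with equal totals or with quantile normalization, and 1 to 2 without 1 mouse. Against vehicle, semaglutide + ketone ester gave 0 throughout. A filter at 50 left 6 of the 9 genes. The causes of the other changes were not tested. Signs changed only in differences short of the threshold. For semaglutide against vehicle, Phgdh was -0.052 with weights, -0.37 without mice 13 and 16 and -0.11 to 0.77 without 1 mouse (below 0 without mouse 16, -0.11, or vehicle mouse 4, -0.020), and Mthfd2 -0.032 (without mouse 14) to 0.20. For semaglutide + ketone ester against semaglutide, Phgdh was -0.010 in edgeR and -0.014 in DESeq2, and without 1 mouse Shmt1 was -0.24 to 0.021 and Shmt2 -0.17 to 0.011. For semaglutide + ketone ester against vehicle, without 1 mouse, Asns was -0.61 to 0.023, Psat1 -0.075 to 0.32 and Mthfd1l -0.40 to 0.22 (0.099 without vehicle mouse 5). Fits without 1 mouse include groups of 2. Low counts limit Phgdh, Mthfd1l, Asns and Psat1. No paired analysis was possible because the groups share no animal numbers.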

Other observations

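Users of the folate one-carbon unit were followed beside the enzymes. Of 12 purine synthesis genes tested, 2 were higher under semaglutide than vehicle and 0 lower, beside 11.9% and 13.2% of all genes tested. Impdh2, which commits inosine monophosphate to guanine nucleotides, rose by 0.99 (SE 0.19, limma adjusted p = 0.00386) from a mean of 179.4 to 369.8 normalized counts, and its groups did not overlap. Gart, which carries out folate-dependent and other early steps of the purine ring, rose by 0.40 (SE 0.10, limma adjusted p = 0.0156). With the ketone ester Impdh2 was 0.86 lower on the log2 scale than under semaglutide (limma adjusted p = 0.0198). Of 9 genes of the methionine cycle and transsulfuration tested, 1 was higher under semaglutide, beside 11.9% of all genes tested, and 0 were lower. This was Ahcy, which hydrolyses S-adenosylhomocysteine (0.59, limma adjusted p = 0.0372), and it was lower with the ester than without (-0.71, adjusted p = 0.0393). Neither list had a gene that passed between the combined treatment and vehicle. The list medians for semaglutide against vehicle were 0.17 for purine synthesis and 0.05 for the methionine cycle.

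Some genes of the lists passed the test just in a comparison with the combined treatment and were picked out after their values were seen. Slc38a2, which encodes the amino acid transporter SNAT2 and is known as a target of ATF4, had means of 3829 normalized counts in vehicle, 3417 in semaglutide and 1630 in semaglutide + ketone ester-treated mice. It was lower in the last group than in vehicle (-1.22, SE 0.19, limma adjusted p = 0.0299) and than in semaglutide (-1.05, SE 0.19, adjusted p = 0.00398), and its mice did not overlap with either group. It was the one gene of the 6 pathway lists (serine and glycine, asparagine, carriers, methionine, purine and stress response) that passed between the combined treatment and vehicle, where 0.163% of all genes were lower. Gnmt, glycine N-methyltransferase, was 1.48 lower with the ester than under semaglutide (limma adjusted p = 0.0372) and Adssl1, the muscle adenylosuccinate synthase, 0.59 lower (adjusted p = 0.00999). Paics, of the purine pathway, was 0.36 higher (limma adjusted p = 0.0499).

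Endothelial marker sums over 5 genes were 3225 to 3875, 3278 to 3715 and 3572 to 4162 in vehicle, semaglutide and semaglutide + ketone ester-treated mice. Sums of 4 nerve and Schwann cell markers were 685.2 to 1971, 645.8 to 2184 and 701.8 to 1103, and those of 5 satellite cell and smooth muscle markers 5973 to 8081, 3351 to 5186 and 5869 to 6743. In the last list 3 markers (Myh11, Acta2 and Rgs5) were lower under semaglutide than vehicle, beside 13.2% of all genes tested.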
